A study of Drosophila melanogaster with 9 samples.

Results

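Transferrin, ferritin and metallothionein genes of Drosophila melanogaster embryos were described across 3 genotypes. They are genes of proteins that carry, store or bind metals. Members were the rows of the deposited gene table whose symbol was Tsf1, Tsf3, Fer1HCH, Fer2LCH, MtnA, MtnB, MtnC or MtnD. A row was found for 7 of these 8 among 10221 rows, and Tsf3 was not analysed here. The members were picked with the levels of Tsf1 and MtnB in these same libraries in view. Their values are therefore given as a description with standard errors and without p-values.

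RNA came from collections of over 200 whole embryos, aged from stage 16 up to air-filled tracheae, and each genotype had 3 libraries, which are biological replicates by the labels. Controls carried the Insc-Gal4 driver over OregonR chromosomes. Quad embryos carried Insc-Gal4 with a quadruple UAS combination (ase, Kr; SoxN, wor), while Hexa embryos carried Insc-Gal4 with a sextuple one that adds hb and nub. The driver, present in all 3 groups, takes its name from inscuteable, which neuroblasts (the stem cells of the nervous system) express, whereas the libraries hold RNA of all tissues. The sample labels place controls, Quad and Hexa in experiments 1, 2 and 3 with 1 lane per experiment, while the series text speaks of 2 experiments, so experiment, lane and genotype cannot be told apart. Nor can stock background, since the transgenes were never present without Insc-Gal4, and Hexa differs from Quad by 2 added transgenes, not by 1.

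Transferrin is an iron carrier of the blood of insects and ferritin a shell of heavy and light chains that stores iron, in insects largely within the secretory pathway. Metallothioneins are small proteins rich in cysteine that bind copper, zinc and cadmium, and their genes are known in flies to be switched on by metal load. In Drosophila, Tsf1 is made mainly in the fat body and is also known as a gene that responds to infection.

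Deposited counts summed to between 8555639 and 11687961 reads per library. The misexpressed gene wor stood at 2.56 to 3.11 RPKM (reads per kilobase of transcript, scaled to library depth) in control embryos, 10.9 to 18.0 in Quad and 12.9 to 23.6 in Hexa. Markers of muscle, epidermis and trachea, nerve cells and glia, midgut and Malpighian tubule (the kidney of the fly) were all detected in every library. The mean log2 level of 18 heat shock genes, taken relative to the control mean, was 0.74, 2.11 and 2.45 for Hexa 1, 2 and 3. It lay between -0.59 and 0.38 for control libraries and between -0.76 and 0.67 for Quad. In such bulk samples, fewer cells of a type and less RNA per cell cannot be told apart.

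Tsf1 had 0.147, 0.168 and 0.18 RPKM in control libraries 1, 2 and 3. In Quad it had 1.05, 0.988 and 0.996 RPKM. In Hexa it had 144, 97.0 and 83.4 RPKM. The groups did not overlap, and the Quad libraries lay close together at a level far below that of Hexa. The ratio of mean RPKM was 6.14 for Quad over control, 656 for Hexa over control and 107 for Hexa over Quad. With 0.1 RPKM added before taking log2, which shrinks differences at low levels, Tsf1 differed by 2.07 ± 0.195 (SE, n = 3 libraries per group) between Quad and control and by 6.57 between Hexa and Quad. With 1 RPKM added, these differences of Tsf1 were 0.79 and 5.72. Among the 6190 tested genes, those that reached 0.5 RPKM in 3 or more libraries, Tsf1 ranked 1 by the rise from Quad to Hexa. By level it ranked 6939 of all rows in control embryos and 420 in Hexa.

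**Figure D1:**
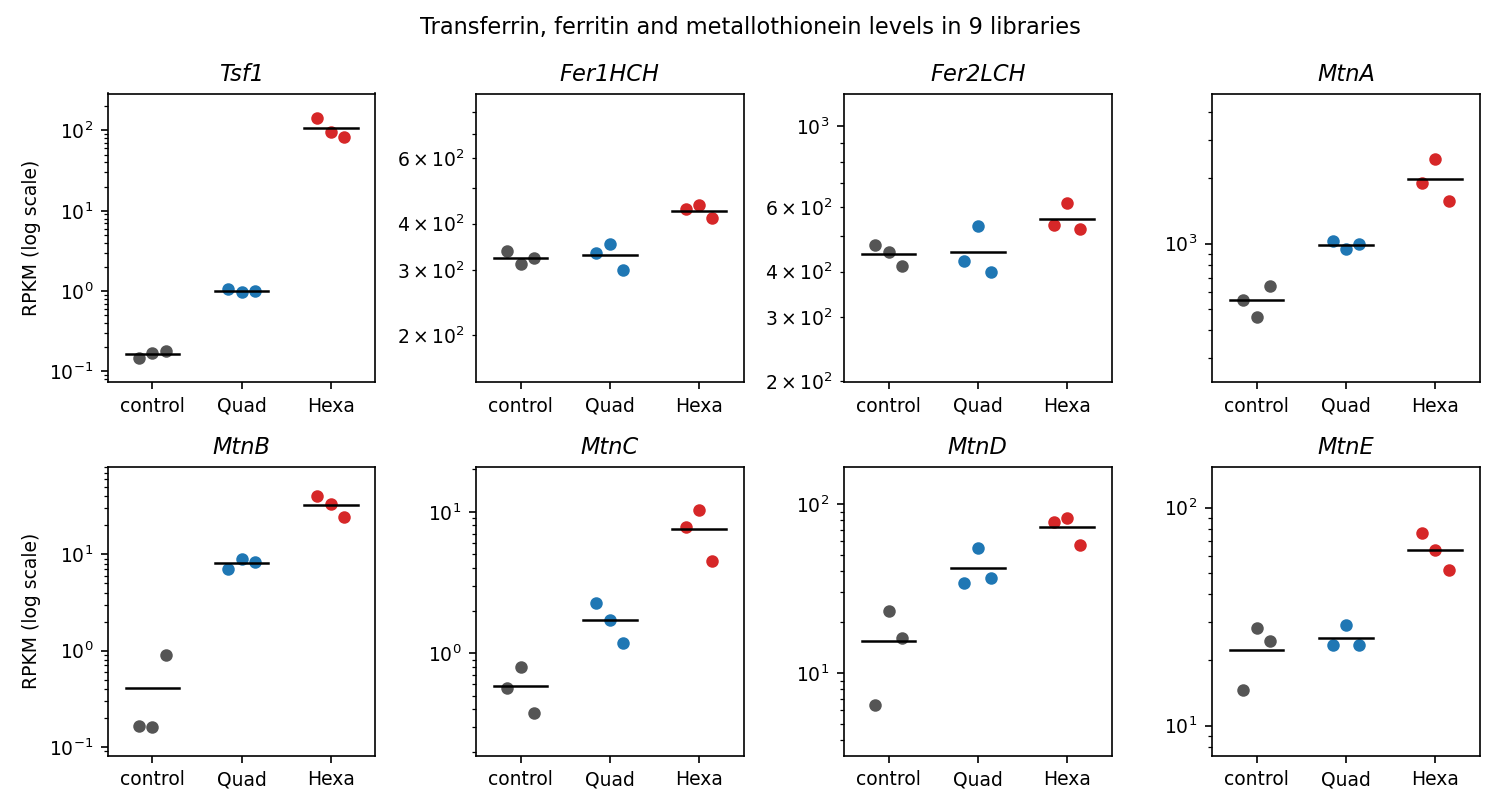
RPKM (log scale) of the 7 members and of MtnE in the 3 control, 3 Quad and 3 Hexa libraries. Each point is 1 library (1, 2, 3 from left to right) and each bar the mean of 3. Tsf1 stands near 1 RPKM in Quad and at 83.4 to 144 in Hexa, while the ferritin genes span less than a doubling over all libraries.

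The deposited count of Tsf1 was 0 in 8 libraries and 3 in Hexa 3. From well counted genes with 1 annotated transcript, a median constant per library was obtained that turns RPKM and length into reads. With the shortest and the longest of the 2 annotated Tsf1 transcripts, RPKM implied 27.3 to 45.9 reads in control embryos, 168 to 285 in Quad and 12460 to 27253 in Hexa. The deposited count thus lay far below the reads implied in every library, and the values of Tsf1 rest on RPKM alone.

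Ferritin genes differed far less. Fer1HCH, the heavy chain that oxidises iron, had 337, 312 and 323 RPKM in control embryos and 333, 353 and 299 in Quad. The Hexa libraries had 439, 449 and 414 RPKM. The 3 Hexa libraries lay above all others, and control and Quad overlapped. The log2 difference of Fer1HCH was 0.02 ± 0.111 (SE) between Quad and control and 0.42 between Hexa and control, where the median of all tested genes was 0.03. Fer2LCH, the light chain, had 472, 453 and 414 RPKM in control embryos and 427, 534 and 398 in Quad. In Hexa it had 537, 616 and 524 RPKM. Its Hexa libraries lay above the controls but overlapped with Quad, through Quad 2. The log2 difference of Fer2LCH was 0.01 ± 0.142 (SE) for Quad and 0.32 for Hexa against control.

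The higher Fer1HCH level of Hexa was not seen in the count column. Counts of Fer1HCH were 5225, 5877 and 4534 in control embryos and 3890, 2818 and 5299 in Hexa, and edgeR on these counts gave a log2 difference of -0.12 between Hexa and control. Against Quad, edgeR on counts gave -0.24 for Fer1HCH and -0.15 for Fer2LCH, where RPKM gave 0.40 and 0.31. For Fer2LCH, with 5 annotated transcripts, the column held 59 to 122 reads per library where RPKM implied at least 37888. Within a library the ratio of Fer1HCH to Fer2LCH RPKM was 0.687 to 0.781 in control embryos, 0.66 to 0.781 in Quad and 0.729 to 0.817 in Hexa. These ranges overlapped in every pair of groups. In the BDGP6.54 annotation the 2 genes lie next to each other on opposite strands and overlap, and it is not given in the sources used here whether counting used strand, so reads of the overlap cannot be told apart.

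MtnA carried most of the metallothionein RNA. It had 554, 463 and 642 RPKM in control embryos. In Quad it had 1025, 943 and 998 RPKM. Its levels in Hexa were 1899, 2444 and 1571 RPKM. No groups overlapped: mean levels stood at a ratio of 1.79 from control to Quad and of 1.99 from Quad to Hexa. The log2 difference of MtnA was 0.85 ± 0.183 (SE) in Quad and 1.82 in Hexa against control. By mean RPKM the gene ranked 64 of all rows in control embryos, 30 in Quad and 19 in Hexa. The deposited counts, a part of its reads, had the same order of groups without overlap: control libraries held 941 to 1026 reads, those of Quad 2179 to 2473 and those of Hexa 2489 to 2952. As CPM (counts scaled to the library total) MtnA had 205.8 to 217.1 in Quad and 218.5 to 325 in Hexa, so Hexa 3 lay just above Quad. Between Hexa and Quad, edgeR on these counts gave a log2 difference of 0.46, where RPKM gave 0.97.

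MtnB was close to absent in controls, at 0.164, 0.162 and 0.901 RPKM, with control 3 apart from the others. In Quad it had 7.1, 8.97 and 8.32 RPKM. In Hexa it had 40.2, 32.9 and 24.1 RPKM. The lowest Quad library was well above the highest control, and the lowest Hexa library well above the highest Quad library. The log2 difference of MtnB was 4.32 ± 0.475 (SE) in Quad and 6.27 in Hexa against control. Without control 3 these were 4.96 and 6.92. The control level is imprecise, since 0.162 RPKM stands for 4.83 to 6.89 reads depending on which of 3 annotated transcripts is assumed. The count column held 51 reads of MtnB in all 9 libraries together, 0 of them in control embryos. Quad libraries held 2, 11 and 0 of these reads and Hexa libraries 16, 10 and 12. In counts Quad 3 was thus level with the controls, and Quad and Hexa overlapped.

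MtnC has 1 annotated transcript, of 268 bases, so RPKM implies a single number of reads per library. Its counts were 14, 20 and 9 reads in control embryos, 57, 39 and 28 in Quad and 139, 177 and 107 in Hexa. RPKM implied the same numbers. Having 1 transcript does not ensure such a match: Sod1, not a member, also has 1 and held 1 to 9 reads at 119 RPKM or more. The levels of MtnC were 0.568, 0.802 and 0.376 RPKM in control embryos. In Quad they were 2.24, 1.73 and 1.18 RPKM. In Hexa they were 7.83, 10.4 and 4.51 RPKM. The groups did not overlap, but within each of them the highest library stood at about double the lowest. The log2 difference of MtnC was 1.42 ± 0.354 (SE) in Quad and 3.46 in Hexa against control, and edgeR on its counts gave 1.60 and 3.62.

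MtnD also has 1 annotated transcript, and its counts matched its RPKM. It had 6.46, 23.4 and 16.1 RPKM in control embryos, the widest spread relative to the mean of a member other than MtnB. In Quad it had 33.9, 54.5 and 36.2 RPKM. Hexa embryos had 78.6, 82.6 and 57.4 RPKM. In RPKM the groups did not overlap, although Hexa 3 lay only just above Quad 2. The log2 difference of MtnD was 1.59 ± 0.424 (SE) in Quad and 2.41 in Hexa against control, and without control 1 it was 1.06 and 1.89. Counts of MtnD were 163, 596 and 395 in control embryos, 877 to 1260 in Quad and 1393 to 1442 in Hexa. As CPM MtnD had 76.8 to 122.4 in Quad and 122.3 to 166.7 in Hexa, so on this scale Quad 2 and Hexa 3 were level and the groups overlapped.

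**Figure D2:**
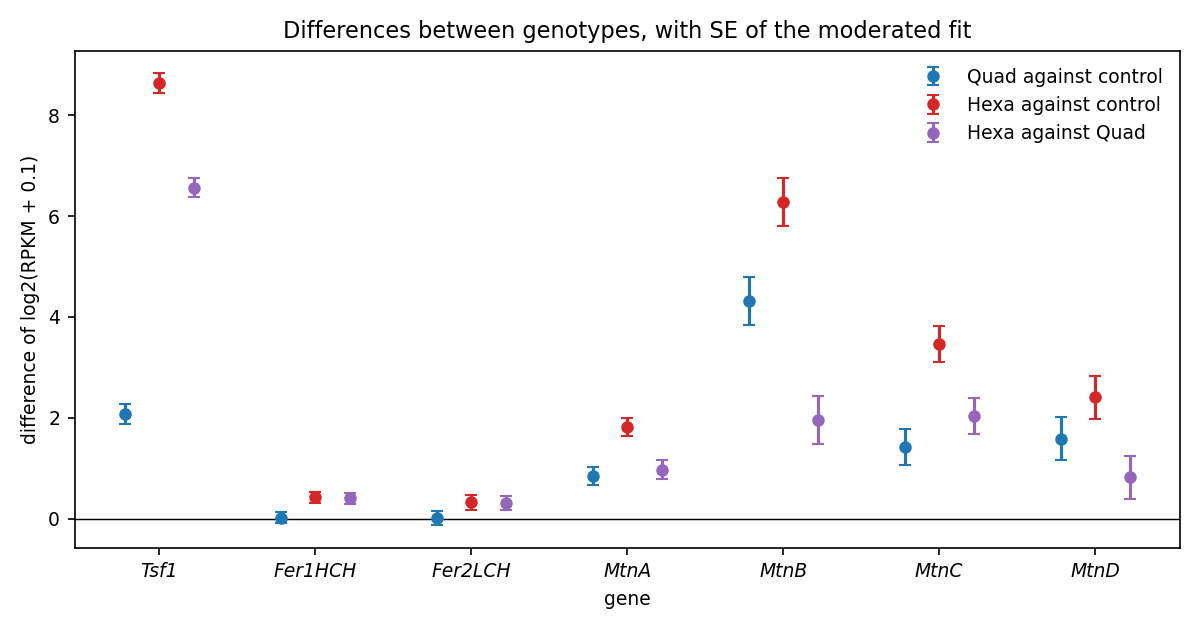
Differences of log2(RPKM + 0.1) between genotypes for the 7 members, with the standard error of a fit over all 9 libraries. For Tsf1 the step from Quad to Hexa (6.57) is far above the step from control to Quad (2.07), and for MtnB the reverse holds (1.96 and 4.32). These are descriptions, since the members were picked from these contrasts.

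The libraries of all members can be read together, here in RPKM. All 3 Quad libraries lay above all 3 controls for 5 of the 7 members, Tsf1 and the metallothionein genes, against 15.2% of tested genes. All 3 Hexa libraries lay above the controls for 7 of 7, against 28.0% of tested genes, and above Quad for 6 of 7, against 28.6%. A stepwise order with no overlap, control below Quad below Hexa, held for the same 5 members and for 3.33% of tested genes. The reverse order held for no member and for 1.32% of tested genes. Because the choice of members used these contrasts, nothing is read from these shares. Within Hexa, library 3 was the lowest of the 3 for each of the 7 members. Hexa 3 also had the highest heat shock mean, 2.45, and Hexa 1, with a heat shock mean of 0.74, had the highest Tsf1 and MtnB. Fer1HCH, Fer2LCH, MtnA, MtnC and MtnD were highest in Hexa 2, with a heat shock mean of 2.11. The part of heat shock in the members' levels was not tested. In heat shock mean, Hexa 1 lay only just above Quad 1 (0.74 and 0.67). All 3 Hexa libraries had a higher heat shock mean than every control and Quad library, so heat shock and genotype cannot be told apart. A fit with this mean as a covariate leans on differences within groups of 3 libraries and cannot decide it. With the heat shock mean as a covariate the Hexa against control differences were 9.01 for Tsf1, 1.68 for MtnA, 6.34 for MtnB, 3.73 for MtnC and 3.14 for MtnD, and the Hexa against Quad difference of MtnD was 1.60, where it was 0.82 without the covariate.

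A gene of the same family that is not a member, MtnE, was measured as well, and its differences were tested with limma, adjusted over all 6190 genes by the Benjamini-Hochberg method. It had 14.5, 27.9 and 24.3 RPKM in control embryos. In Quad it had 23.3, 28.9 and 23.5 RPKM. In Hexa it had 76.9, 63.7 and 51.7 RPKM. Control and Quad overlapped and Hexa stood above both. MtnE rose in Hexa against control by log2 1.55 ± 0.24 (SE, adjusted p = 0.00224) and against Quad by 1.33 (adjusted p = 0.00754), and was not called in Quad against control (log2 0.23, adjusted p = 0.663). The count column held 0 to 22 reads of MtnE per library, and on these counts neither Hexa difference passed in edgeR or DESeq2, with adjusted p up to 0.844.

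In the annotation MtnD and MtnE are neighbours on opposite strands with no gene between them. The ratio of MtnD to MtnE RPKM within a library was 0.444, 0.837 and 0.662 in control embryos. In Quad it was 1.45, 1.89 and 1.54. In Hexa it was 1.02, 1.30 and 1.11. The groups did not overlap, with MtnD below MtnE in all controls and above it in all libraries of the misexpression genotypes. MtnB lies near this pair with 4 annotated genes between it and MtnE, MtnC is farther away on the same arm, and MtnA is distant. A further relative, MtnF (in the table as CG43222), had 5.09 ± 0.305 RPKM (SD, n = 3) in control embryos, 4.68 ± 0.299 in Quad and 8.10 ± 2.15 in Hexa. CG43222 rose in Hexa (limma, log2 0.63, adjusted p = 0.0356). The call ended when a single control, Hexa 1 or Hexa 2 was left out (adjusted p up to 0.101). It also ended with no filter, the fit of 2 groups, the replicate block and the heat shock covariate. On the counts, neither edgeR nor DESeq2 called it (adjusted p up to 0.159, in edgeR).

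The summed RPKM of MtnA, MtnB, MtnC, MtnD and MtnE was 516 to 683 in control embryos, 1037 to 1091 in Quad and 1708 to 2634 in Hexa. MtnA made up 89.9 to 96.2% of the sum in control embryos, 90.9 to 93.9% in Quad and 90.3 to 92.8% in Hexa, so its share overlapped between all groups. The other 4 together had 21.7 to 52.3 RPKM in control embryos, 66.6 to 94.1 in Quad and 138 to 203 in Hexa. By mean level the order in control embryos was MtnA, MtnE, MtnD, MtnC and MtnB. MtnE and MtnD overlapped there, as did MtnC and MtnB. In Hexa the order was MtnA, MtnD, MtnE, MtnB and MtnC, where MtnD and MtnE again overlapped and MtnB lay above MtnC in every library.

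**Figure D3:**
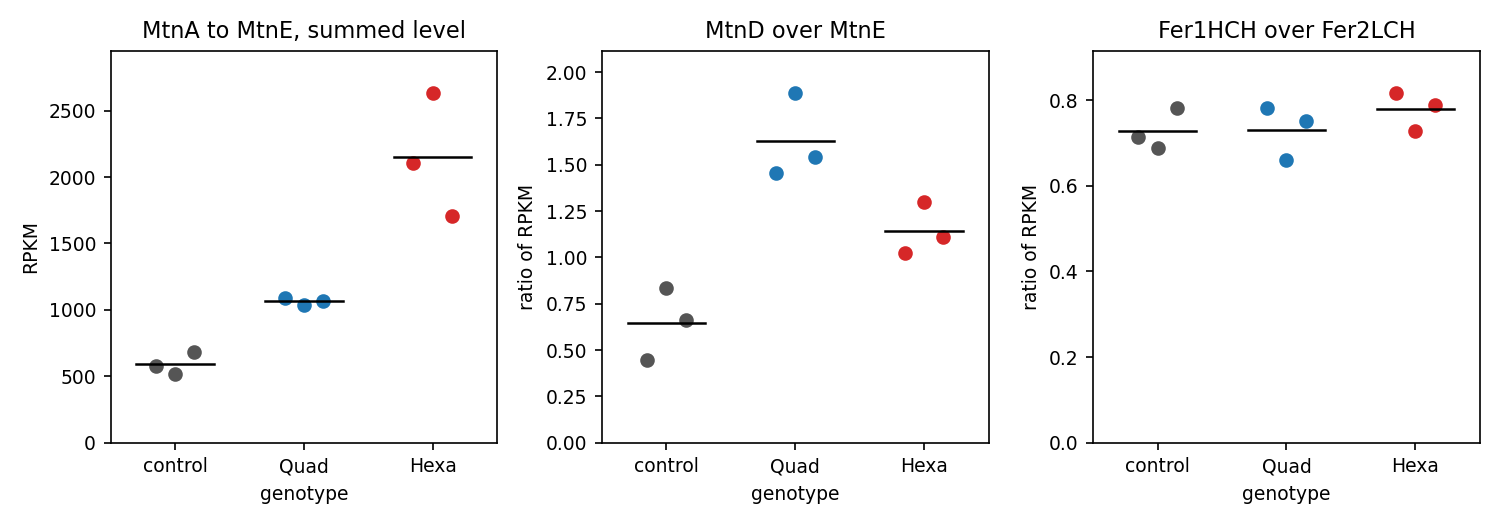
Summed RPKM of MtnA to MtnE, the ratio of MtnD to MtnE and the ratio of Fer1HCH to Fer2LCH in each library, all axes from 0. Points are libraries and bars means of 3. The sum is 516 to 683 for control libraries and 1708 to 2634 for Hexa, the ratio of MtnD to MtnE is highest in Quad, and the ferritin ratio lies between 0.66 and 0.817.

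Of 20 other listed genes of copper and zinc handling with a row, 16 were tested. In Quad 1 was higher and none lower than in the control, where 2.16% of all tested genes were called higher and 2.52% lower, 4.68% in all. In Hexa 5 were higher and 5 lower than in the control, where 19.1% of all tested genes were called higher and 13.1% lower, 32.3% in all. Between Hexa and Quad 3 were higher (MtnE, CG43222 and Sod1) and 3 lower in Hexa (Ctr1A, ZnT63C and foi, the last pair zinc transporter genes), where 13.5% of all tested genes were called higher and 9.63% lower, 23.1% in all. The calls of CG43222, Sod1, Ctr1A, ZnT63C and foi between Hexa and Quad each ended when any single Quad library or Hexa 2 was left out (adjusted p up to 0.139), and with the heat shock covariate (adjusted p up to 0.555). The difference from control was positive in Hexa for 6 of the 16. The median log2 difference over the 16 was -0.10 in Quad and -0.23 in Hexa, where the medians of all tested genes were 0.02 and 0.03.

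The gene called in Quad was ZnT35C, a zinc transporter known from the Malpighian tubule. It had 8.19, 6.14 and 7.51 RPKM in control embryos. In Quad it had 37.5, 32.9 and 35.5 RPKM. Levels in Hexa were 41.7, 35.9 and 45.8 RPKM. Quad and Hexa overlapped and stood well above the controls. ZnT35C rose by log2 2.27 ± 0.139 (SE, limma adjusted p = 1.32e-05) in Quad and by 2.49 (adjusted p = 7.19e-06) in Hexa, and Hexa against Quad was not called (log2 0.21 ± 0.139 (SE), adjusted p = 0.271). Both calls of ZnT35C held in all 15 alternatives, with adjusted p up to 9.75e-04 and 0.00167.

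Beside MtnE, MtnF and ZnT35C, the genes called higher in Hexa were the zinc transporter gene Zip48C and Sod1, the superoxide dismutase that holds copper and zinc. Sod1 had 145, 140 and 161 RPKM in control embryos and 182, 259 and 184 in Hexa (limma, log2 0.47, adjusted p = 0.0477). That call, too, ended when a single control, Hexa 1 or Hexa 2 was left out (adjusted p up to 0.111), and the count column held 1 to 9 reads of Sod1 per library. The Sod1 call also ended with no filter, TMM factors, the fit of 2 groups, the replicate block and the heat shock covariate (limma adjusted p up to 0.320). DESeq2 on the counts gave Sod1 no adjusted p. Called lower were Zip89B, foi, ZnT77C and ZnT86D, all zinc transporter genes, and Ctr1A, which encodes a copper importer. Zip89B went from 20.6 ± 0.412 RPKM (SD, n = 3) in control embryos to 16.7 ± 0.251 in Quad and 14.1 ± 0.951 in Hexa. Zip89B had a log2 difference of -0.55 in Hexa (limma adjusted p = 0.00424), a call that held in all 15 alternatives, and was not called in Quad (log2 -0.31, adjusted p = 0.118). Ctr1A had 39.3 ± 2.80 RPKM in control embryos and 29.0 ± 2.36 in Hexa (limma, log2 -0.44, adjusted p = 0.0181), which did not pass when control 1 or Hexa 1 was left out (adjusted p up to 0.0658) or in edgeR on the counts. Zip48C, foi, ZnT77C and ZnT86D, named after their values were seen, each lost the call when 1 of several libraries was left out (adjusted p up to 0.115), control 1 among them in every case, and in the fit of 2 groups and in edgeR on the counts.

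**Figure D4:**
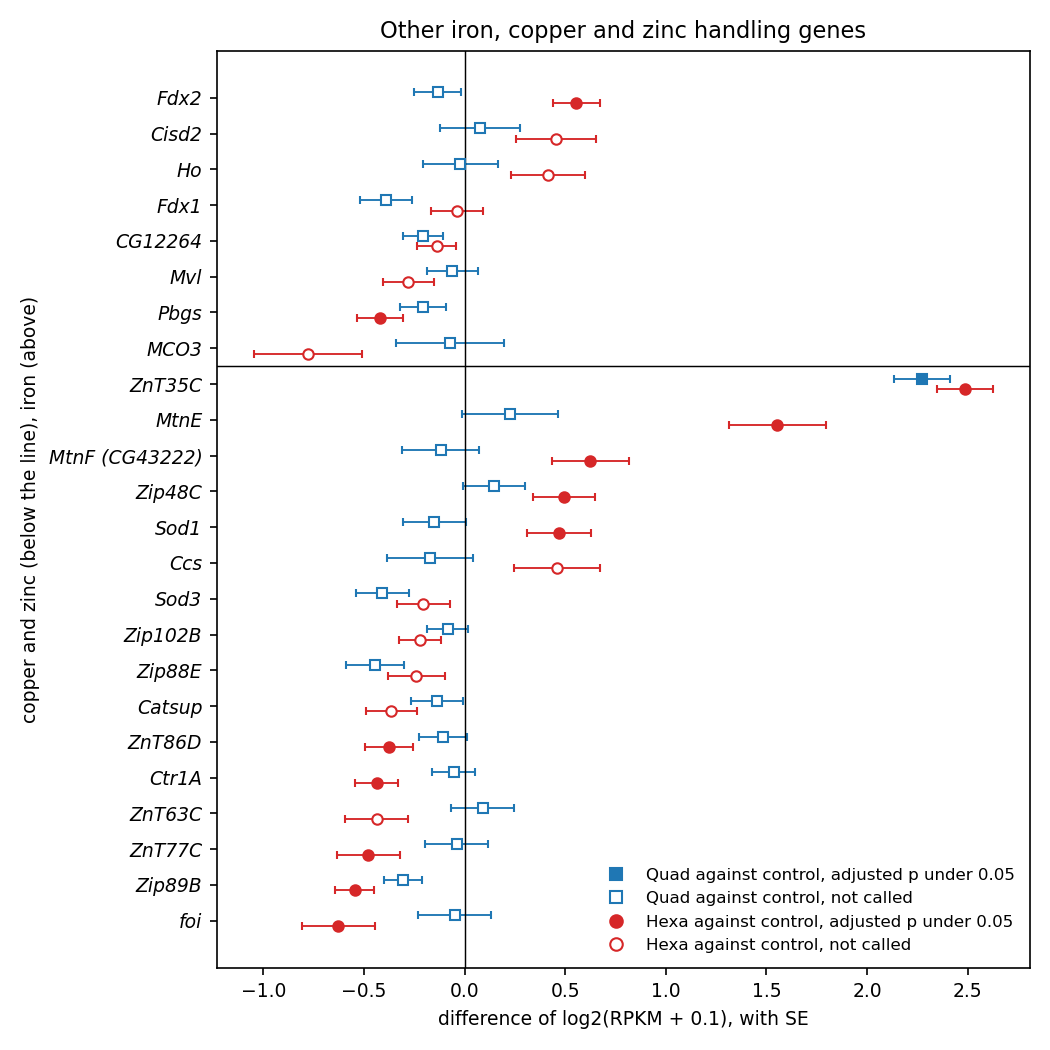
Differences of log2(RPKM + 0.1) from the control, with standard errors, for the 24 tested genes of iron handling (above the line) and copper and zinc handling (below it). Squares are Quad, circles Hexa, and filled symbols passed an adjusted p of 0.05. ZnT35C is the gene with a filled symbol in Quad, and 12 genes have one in Hexa.

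Of 9 other listed genes of iron handling with a row, 8 were tested. In Quad limma called 0 of them, as did edgeR and DESeq2 on the counts, and 1 had an unadjusted p below the threshold of 0.05. Of all tested genes 4.68% were called in Quad. In Hexa 1 was higher and 1 lower than in the control, near the share of 32.3% of all tested genes, and Fdx2 was also called against Quad (log2 0.69, limma adjusted p = 0.00594). The median log2 difference over the 8 was -0.10 in Quad and -0.09 in Hexa. The higher gene was Fdx2, a mitochondrial ferredoxin gene, with 54.4, 52.8 and 60.9 RPKM in control embryos and 80.2, 92.2 and 75.1 in Hexa (limma, log2 0.56 ± 0.117 (SE), adjusted p = 0.00959). With the heat shock mean as a covariate in limma neither difference of Fdx2 was called, at log2 0.43 against control (adjusted p = 0.181) and 0.56 against Quad (adjusted p = 0.129). That fit called fewer of all genes too, 576 where the main fit called 1997 against control, and 357 where it called 1431 against Quad. Such a fit leans on differences within groups of 3 libraries, and the part of heat shock in Fdx2 was not tested. The lower gene was Pbgs, an enzyme gene of haem synthesis, with 31.4 ± 1.10 RPKM (SD, n = 3) in control embryos and 23.5 ± 2.87 in Hexa (limma, log2 -0.42, adjusted p = 0.0248). Its call ended when control 1, control 3 or Hexa 1 was left out (adjusted p up to 0.0777). It also ended in the fit of 2 groups, with the heat shock covariate, and in DESeq2 and edgeR on the counts (adjusted p up to 0.147, in edgeR).

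The haem oxygenase gene Ho (22.6 against 17.3 RPKM in control embryos, adjusted p = 0.0989), Mvl, an iron and manganese importer gene (17.5 against 21.2 RPKM, adjusted p = 0.105), and Cisd2 (adjusted p = 0.0939) were not called in Hexa. Nor was MCO3, which lay closest to the threshold (1.76 against 3.06 RPKM in control embryos, limma log2 -0.78, adjusted p = 0.0508). Fer3HCH, a further ferritin heavy chain gene, was below the filter in all groups, at 0.189 to 0.572 RPKM. The regulators MTF-1 and IRP-1A and the copper importer Ctr1B were not analysed here.

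Markers of other cell types and states also differed between the genotypes. Their counts are to be read against the shares of all tested genes, of which 19.1% were called higher and 13.1% lower in Hexa, and 2.16% and 2.52% in Quad. All 4 tested Malpighian tubule markers, Uro, Irk2, Irk3 and NaPi-T, were higher in Hexa, and 1, Irk3, was higher in Quad. Their summed level was 33.1 to 43.1 RPKM in control embryos, 46.1 to 49.4 in Quad and 78.2 to 95.6 in Hexa. Uro, a defining gene of the mature tubule, was at or below 0.145 RPKM in control embryos, at 0.0167 to 0.771 in Quad and at 1.15 to 1.33 in Hexa. Of 16 midgut markers 7 were higher and 3 lower in Hexa, with none higher and 2 lower in Quad, and a summed level of 465 to 623 RPKM in control embryos, 374 to 481 in Quad and 616 to 877 in Hexa. Of 7 epidermis and trachea markers 3, verm, serp and TwdlX, were lower in Hexa and none higher, and TwdlX was lower in Quad, with a summed level of 1183 to 1384 RPKM in control embryos, 1225 to 1237 in Quad and 874 to 989 in Hexa. Of 4 muscle markers 1, Mhc, was lower in Hexa and none was called in Quad, with a summed level of 9027 to 9663 RPKM in control embryos, 8390 to 8784 in Quad and 7682 to 8422 in Hexa. Of 4 markers of nerve cells and glia 1, ChAT, was higher in Hexa and none was called in Quad, with a summed level of 236 to 266 RPKM in control embryos, 266 to 288 in Quad and 271 to 292 in Hexa. Listed markers without a matched row were not analysed here, among them ct, Drip, Vha55 and Oat80Db of the tubule. Others were elav, nSyb, Syt1, brp, VGlut and Eaat1 of nerve cells and glia, and Mlc1, Mlc2, Tm2, up and wupA of muscle. Calls of markers rest on the main fit and were not followed over the alternatives. The part of the markers in the levels of the members was not tested.

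Fat body and blood cell markers that were called were lower in Hexa, where Tsf1 was high. Of all tested genes 19.1% were called higher and 13.1% lower in Hexa, and 2.16% higher and 2.52% lower in Quad. Of 5 tested fat body markers none was higher and 2, apolpp and svp, were lower in Hexa, with a summed level over all 11 rows of 305 to 413 RPKM in control embryos, 347 to 383 in Quad and 195 to 273 in Hexa. Of 11 tested blood cell markers 7 were lower and none higher in Hexa, and none was called in Quad. Their summed level over 13 rows was 393 to 411 RPKM for control libraries, 366 to 417 for Quad and 212 to 294 for Hexa. Their part in the level of Tsf1 was not tested. Of 20 tested antimicrobial effector genes 8 were higher and 2 lower in Hexa, and 2 each in Quad. Of 12 tested genes of the oxidative stress response 7 were higher and none lower in Hexa, with GstD1 the 1 gene called in Quad, where it was higher.

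The 3 nearest tested genes on each side of every member and of MtnE came to 25 genes outside the family. None was called in Quad against control (limma, adjusted p from 0.0953), and in Hexa 6 were higher and 2 lower, a share near the 32.3% of all tested genes called there. The 6 tested genes around Tsf1, which were CG6023, CG6106, CrebB, CG32551, CG32547 and Hayan, were called in no comparison. MFS9, a transporter gene by its name and the nearest tested neighbour of MtnB and MtnE, rose in Hexa, from 5.04, 6.22 and 7.21 RPKM in control embryos to 18.4, 18.0 and 15.4 (limma, log2 1.48, adjusted p = 2.56e-04). It had 8.42, 8.80 and 7.51 RPKM in Quad and was not called there (limma adjusted p = 0.155). Deposited counts of MFS9 were 44, 75 and 66 in control embryos, 71, 74 and 61 in Quad and 87, 63 and 91 in Hexa. Not scaled to the library total, these counts overlapped between the groups. Calls of neighbours were not followed over the alternatives.

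Patterns over the 9 libraries were compared by Pearson's correlation of log2(RPKM + 0.1). Tested genes below a minimum level, or whose symbol is only a CG or CR number, were left out of this search. Among the rest, the genes most like Tsf1 were lectin-37Db (r = 0.995), Mur18B (0.991), GstD1 (0.985), ash2 (0.983) and Odc2 (0.983). Their sizes of change differed: mean lectin-37Db went from 3.34 RPKM in control embryos over 6.60 in Quad to 148 in Hexa, and mean Odc2 from 2.31 over 4.25 to 12.4. In the same search, the genes most like MtnB were the tubule potassium channel gene Irk3 (r = 0.964), PGRP-SB2 (0.964), lcs (0.962), MtnA (0.947) and the misexpressed gene ase (0.946). Irk3 had 12.2, 12.1 and 11.7 RPKM in control embryos, 18.3, 17.9 and 17.3 in Quad and 21.6, 20.1 and 19.4 in Hexa. Such correlations describe 9 libraries that fall into 3 genotypes, which all these genes share.

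**Figure D5:**
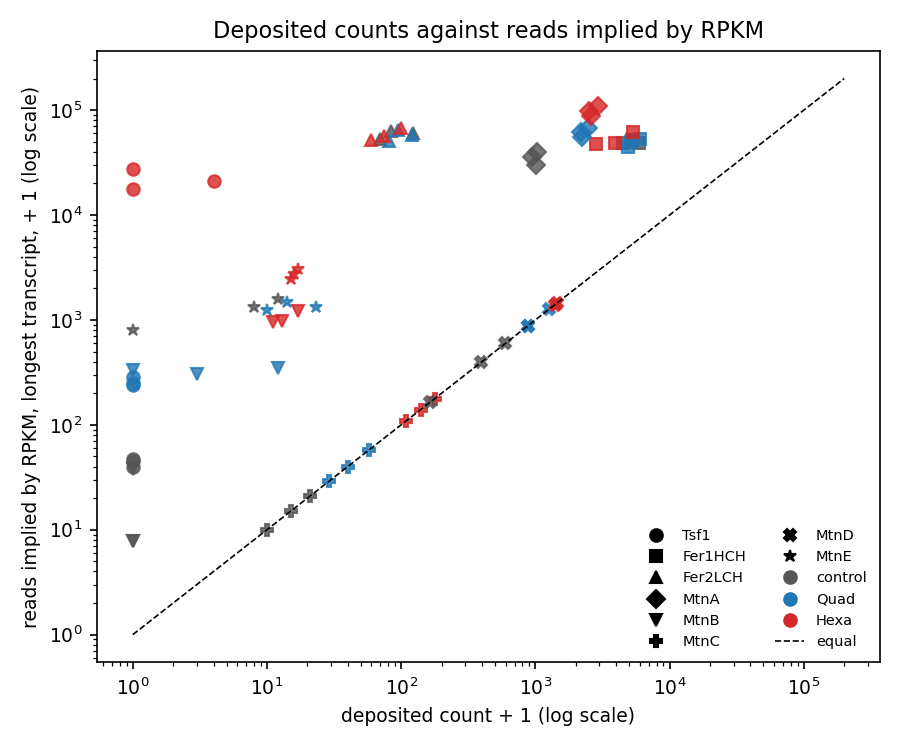
Deposited counts (x axis) against the reads that RPKM implies with the longest annotated transcript (y axis), each plus 1 and on log scales, for the 7 members and MtnE. Symbols are genes, colours genotypes, each point 1 library, and the dashed line marks equality. MtnC and MtnD lie on the line, while Tsf1 has a count of 0 to 3 where RPKM implies up to 27253 reads.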

How the data were processed

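RNA from 9 collections of whole embryos was sequenced on a HiSeq2500 with 150 bp reads, per the labels. The authors deposited 1 table with raw counts, linear RPKM and log2 RPKM for each library, per the file headers. Aligner, counting tool, strand setting, build and annotation are not given in the sources used here. Log2 RPKM, which the authors deposited with a floor of -10.86 where RPKM is 0, was converted to RPKM and the floor set to 0. Linear RPKM columns as deposited equalled these values within 1% in 100.0% of cells. They were otherwise unused, because their headers call 2 of the control columns da and not Insc, which the sources do not explain.

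Deposited counts hold only part of the reads of many genes with several transcripts, and also of Sod1, which has 1. Therefore limma (3.58.1; trend, robust) on log2(RPKM + 0.1) over all 9 libraries was the main test, with Benjamini-Hochberg adjustment over 6190 genes. edgeR (4.0.16) and DESeq2 (1.42.0) on the counts, pseudocounts of 0.01 and 1, no filter, TMM factors, 2-group fits, a replicate block, a heat shock covariate and leaving out each library were the alternatives. Procedures were tested on simulated data.

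Members and lists were chosen with earlier results of these data known. Named were all members, called genes of the iron and the copper and zinc lists, at most 4 per list and comparison unless stated, and the 5 genes nearest in pattern to Tsf1 and to MtnB. Genes nearest in pattern were sought among tested genes with a mean of at least 5 RPKM in the highest group. Symbols that are only a CG or CR number were left out of that search. List symbols without a row were looked up by RefSeq synonyms, which in the metal lists gave MtnF, MCO3 and CG12264 (Nfs1) a row. The BDGP6.54 annotation was used for transcript lengths and gene order, with no coordinates. Replicates are biological, per the labels.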

Additional observations from a re-analysis of the deposited data

How the results depend on the processing

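The differences of the members kept their direction in all alternatives for Tsf1 (on RPKM) and the 4 metallothionein genes, while Fer1HCH was lower in Hexa than in control embryos by edgeR (-0.12) and DESeq2 (-0.11) on the counts, both ferritin genes were lower in Hexa than in Quad on the counts, and their differences near 0 in Quad changed sign without Quad 2, control 2 (Fer1HCH) or control 3 (Fer2LCH). In Hexa against control, with 1997 genes of all, 2 of iron and 10 of copper and zinc handling called, the fit of 2 groups gave 925, 1 and 3, the heat shock covariate 576, 0 and 4, and edgeR 1033, 1 and 2. Copper and zinc genes called there were 5 with no filter, 5 with the replicate block and 3 in DESeq2. In Hexa against Quad, with 1431, 1 and 6 called (835 of all genes higher and 596 lower, or 730 and 841 with TMM factors), the covariate gave 357, 0 and 1, edgeR 686 of all and 0 of copper and zinc, no filter 3 and DESeq2 1 of copper and zinc. The fit of 2 groups gave 2 of iron, and the replicate block 882 of all. In Quad against control, with 290, 0 and 1 called, the block gave 226 and no alternative of this kind moved a count by over 1.5 times. Same-numbered libraries correlated at 0.098, 0.179 and 0.147 between control and Quad, where others lay between -0.196 and 0.048, a hint of pairing. Of these pairs 1 fell just short of the cutoff of 0.1 used for pairing. With Hexa, same-numbered libraries ranged from -0.152 to 0.072. The main fit therefore did not pair samples by number, which does not settle pairing of control with Quad. The replicate block is the alternative that allows for it.

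Leaving out 1 library gave 132 to 331 calls of all genes in Quad, 962 to 2199 in Hexa against control and 442 to 1840 in Hexa against Quad. For iron genes the ranges were 0 to 0, 1 to 3 and 1 to 2, and for copper and zinc genes 1 to 2, 3 to 11 and 1 to 8. Counts of all genes moved by over 1.5 times without control 1 (182), control 3 (143) or any Quad library (132, 162 and 167) in Quad, without control 1 (962), Hexa 1 (1002) or Hexa 2 (1250) in Hexa against control, and without any library but Hexa 3 in Hexa against Quad. The cause was not tested. Depth limits MtnB in the controls and MtnC, and the count column limits Tsf1, MtnB and MtnE.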
